A study of Mus musculus with 12 samples.

Results

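Skin of the TSeL+L group was compared with skin of the PBS group, gene by gene, in a study of poly(A) RNA from skin of mice aged 8 weeks. The mice were BALB/C, an inbred strain with an albino coat. The comparison takes in 6 of the 12 samples: 3 that received PBS (phosphate-buffered saline, the control) and 3 labelled TSeL+L. The other 6 are 3 of TL+L and 3 of TSeL, which entered the fit and are quoted where they bear on a gene. The names TL, TSeL and L are not explained by the labels, which also leave out how and where on the body the treatments were given. Separate animals per sample are not stated, and p-values then measure only the spread between these samples, which may be technical. All 4 groups share the strain, age and tissue, and no genetic modification is given for any of them.

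Skin is a layered tissue. Keratinocytes divide in the basal layer of the epidermis, differentiate through the spinous and granular layers and die as the cornified envelope; hair follicles, which pass through cycles of growth, regression and rest, carry the sebaceous glands; the dermis below holds fibroblasts, vessels and fat over a thin sheet of skeletal muscle. Inflamed or wounded skin makes CXC chemokines that bring in neutrophils, granule-bearing phagocytes that leave the blood early in inflammation, and is later repopulated by macrophages. Macrophages in an environment rich in interleukin-4 and interleukin-13 express a different set of genes from those exposed to bacterial products, and Retnla, which encodes the secreted protein RELM-alpha, is a widely used marker of the former state in mice. Chemokine genes of the Cxcl1, Cxcl2, Cxcl3 and Cxcl5 kind are transcribed through NF-kappaB when epithelial cells, fibroblasts and macrophages are stimulated.

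Columns coded TSL were read as TSeL+L, a reading on which all TSeL+L values below rest. These 3 columns differed from each other by little more than counting noise, with a mean chi-square over genes of 1.38 to 1.49, where pairs of PBS samples gave 25.1 to 59.0. They were averaged and counted as 1 sample, so TSeL+L values carry no replicate error. Below, a TSeL+L value is that average unless columns are named. The 3 columns read as TSeL gave a mean chi-square of 1.19 to 1.41 between them. They were likewise averaged to 1 sample, so TSeL values carry no replicate error either. The 12 columns held 16630580 to 17318158 estimated counts each. Levels are given as CPM, counts scaled by library size and by a factor between libraries. Defining genes of skin were abundant in both groups, with Krt5, a keratin of basal cells, at 1798, 2088 and 1416 CPM in PBS and 2218 CPM in TSeL+L, and Dcn, a proteoglycan of the dermis, at 2751, 1995 and 2212 CPM against 1072 CPM. Both groups also held muscle: Acta1, skeletal muscle actin, stood at 5462, 4809.6 and 2393 CPM in PBS and at 4932 CPM in TSeL+L. PBS replicate 3 stood apart from the other PBS samples in several gene groups named below, with more RNA of hair shaft genes and less of muscle and of neutrophil granule genes.

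Of 15791 genes tested across all groups, 2 changed between TSeL+L and PBS in edgeR's quasi-likelihood test (Benjamini-Hochberg adjusted p under 0.05), which is 0.0127% of them: 1 rose and 1 fell, or 0.00633% in each direction. A lone treated sample borrows its spread from the PBS and TL+L replicates in this test. The effect sizes were therefore also set against the PBS range: a gene is called clear of the PBS range where TSeL+L lay at least 2-fold (1 on the log2 CPM scale) above the highest or below the lowest PBS sample, which is a description and not a test. By this measure 858 genes (5.43%) were clear above and 968 (6.13%) clear below. Scaling by library totals alone moved the median of all genes (log2 fold change) from -0.0029 to 0.16 and turned that split to 1073 above and 709 below. Gene lists are described below by how many members were clear of the range in each direction, to be read against these percentages, and by the median log2 fold change of their tested members. Lying outside the PBS range by any distance was common: of the 15791 genes, 5668 were above every PBS sample and 5746 below. Counts of list members above or below every PBS sample are to be read against these numbers. Apart from the 2 genes that changed, no gene named below passed edgeR's test, whether or not its adjusted p is printed. Several genes printed without one, such as Col1a1, Col3a1 and Krt16, lay further from the threshold than those printed with one near it.

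Cxcl5 (NCBI gene 20311), a chemokine of epithelial cells that attracts neutrophils through the receptor CXCR2, was the gene that fell. It stood at 248, 277 and 289.8 CPM in the PBS samples and at 13.3, 13.7 and 13.8 CPM in the TSeL+L columns. The TSeL+L columns, near-repeats of 1 library, all lay far below the lowest PBS sample. Of all 15791 genes, 5746 were below every PBS sample. The fitted log2 fold change was -4.32 (SE 0.30, edgeR adjusted p = 0.0424), or 19.9-fold lower than the PBS mean of 272 ± 21.4 CPM (SD, n = 3). TL+L skin had 48.3 ± 8.85 CPM (SD, n = 3) and TSeL skin 104 CPM, so that TSeL+L had the lowest level of the 4 groups. In bulk skin, fewer cells of a type and less RNA per cell cannot be told apart, here and for every gene below.

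Retnla (NCBI gene 57262) was the gene that rose. Its level was 1.46, 2.21 and 1.95 CPM in the PBS samples and 22.1, 19.3 and 20.7 CPM in the TSeL+L columns. The near-repeat TSeL+L columns all exceeded the PBS samples, which themselves lay within a narrow band. Of all 15791 genes, 5668 were above every PBS sample. The fitted log2 fold change was 3.46 (SE 0.26, edgeR adjusted p = 0.0424), or 10.98-fold higher than the PBS mean of 1.88 ± 0.380 CPM (SD, n = 3). TL+L skin stood between, at 8.51 ± 0.232 CPM (SD, n = 3), and TSeL skin had 2.66 CPM, close to PBS.

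Both calls depended on which samples were in the fit. They held without TL+L replicate 2 and with PBS and TSeL+L alone. With any PBS sample left out, or TL+L replicate 1, neither gene passed in edgeR: the adjusted p of Cxcl5 became 0.149, 0.208 and 0.167 without PBS replicates 1, 2 and 3 and 0.0852 without TL+L replicate 1, and that of Retnla 0.174, 0.208 and 0.167 and 0.0852. Retnla also missed the threshold without TL+L replicate 3, at 0.0774. The fold changes themselves barely moved, from -4.38 to -4.24 for Cxcl5 and from 3.31 to 3.59 for Retnla (log2) over the fits without a PBS sample. The number of genes that passed differed widely with the fit: edgeR called 2163 without TL+L replicate 2 and 1802 with PBS and TSeL+L alone, and on the same 8 samples DESeq2 called 1496 and limma-voom 4.

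Set directly against the other treated groups in the same fit, no gene passed in edgeR. TSeL+L and TSeL are 1 averaged sample each. The contrast between them has no replicates of its own and borrows its spread from the PBS and TL+L replicates. TSeL+L against TL+L gave 0 of 15791 genes in edgeR (0%; 53 at an unadjusted p under 0.05), 1 in DESeq2 and 0 in limma-voom. TSeL+L against TSeL gave 0 in edgeR (0%; 1911 at an unadjusted p under 0.05), 363 in DESeq2 and 0 in limma-voom. Cxcl5 was lower in TSeL+L than in TL+L by a log2 fold change of -1.83 (adjusted p = 1) and than in TSeL by -2.94 (adjusted p = 0.313), and Retnla was higher than in TL+L by 1.28 (adjusted p = 1) and than in TSeL by 2.96 (adjusted p = 0.313), in edgeR. These comparisons share the TSeL+L sample with the comparison against PBS. Set against the same PBS samples, several list medians described below were close in TSeL+L and TL+L (log2 fold changes). They were -2.54 and -2.71 for neutrophil, -1.31 and -1.22 for fibroblast and 4.83 and 5.16 for hair shaft genes. For melanocyte genes they were 3.09 and 3.53, and for blood vessel genes -1.39 and -1.30. Others lay further apart, such as CXC chemokines at -3.41 and -2.44 and wound keratinocyte genes at -1.48 and -0.57.

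Among genes clear of the PBS range, those chosen for the largest fold changes against the PBS mean were mostly of 2 kinds. At the low end were genes of neutrophil precursors and their granules. Mpo, the granule enzyme myeloperoxidase, stood at 26.1, 49.9 and 5.33 CPM in PBS and 0.383 CPM in TSeL+L. Elane, neutrophil elastase, had 8.23, 17.3 and 1.18 CPM in PBS, and the TSeL+L columns held 1, 4 and 1 counts. Retnlg, a relative of Retnla expressed by neutrophils, stood at 275, 127 and 65.9 CPM against 4.54 CPM, and Ngp, a neutrophil granule protein, at 183, 172 and 31.3 CPM against 4.32 CPM. In all of these PBS replicate 3 had the lowest PBS value, and TSeL+L lay below it. The other low genes are not neutrophil genes: Igfn1, a protein of skeletal muscle, at 459.5, 117 and 36.5 CPM against 7.28 CPM; Kcnk10, a potassium channel, at 3.11, 4.85 and 10.7 CPM against 0.219 CPM; and Prl2c3, a member of the prolactin family with near-identical copies, at 11.3, 16.2 and 8.59 CPM against an average of 3 counts.

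At the high end were genes of the hair shaft. Krt33a and Krt83, keratins of the hair cortex, stood at 0.122, 0.307 and 38.8 CPM and 1.46, 1.29 and 35.6 CPM in PBS and at 644 and 628 CPM in TSeL+L. Gprc5d, a receptor found in hair-forming cells, stood at 0.122, 0.0614 and 9.89 CPM against 138 CPM. Krtap19-4 and Krtap19-1, which encode keratin-associated proteins, had 0, 0 and 2 counts and 0, 0 and 4 counts in PBS against 279 and 339 in TSeL+L. With them were Car6, Kcnk16 and Bhlha9. Car6, a secreted carbonic anhydrase, stood at 0.183, 0 and 0.651 CPM in PBS and 11.6 CPM in TSeL+L, Kcnk16, a potassium channel, at 0.0610, 0.123 and 1.18 against 16.3 CPM, and Bhlha9, a transcription factor, at 0, 0 and 0.770 against 9.30 CPM. PBS replicate 3 was the highest PBS sample for all 8 of these genes. None of the genes named in these paragraphs besides Cxcl5 and Retnla passed edgeR's test, with adjusted p from 0.105 for Retnlg to 0.242 for Krt33a.

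**Figure D1:**
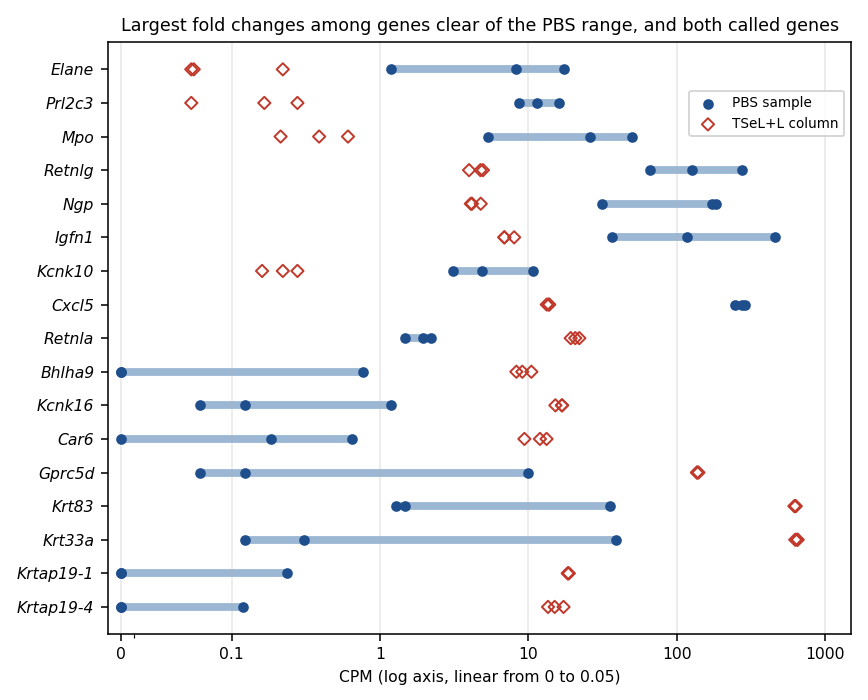
Levels in CPM (log axis, linear from 0 to 0.05) of the genes chosen for the largest fold changes in each direction among those clear of the PBS range, with Cxcl5 and Retnla. Filled circles are the 3 PBS samples, the bar is their range, and open diamonds are the 3 TSeL+L columns, which are near-repeats of 1 library. The PBS range is narrow for Cxcl5 and Retnla and wide for the hair and granule genes.

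The CXC chemokines listed for neutrophil recruitment were low together. Of 8 listed, 6 were tested, and all 6 were clear below the PBS range, against 6.13% of all genes, with a median log2 fold change of -3.41; 1 of them, Cxcl5, fell. Cxcl15 and Cxcl17 did not pass the filter on low counts. Cxcl1, the mouse counterpart of human growth-regulated oncogene chemokines, stood at 147, 76.9 and 77.98 CPM in PBS and 6.73 CPM in TSeL+L. Cxcl2, which macrophages and keratinocytes make on stimulation, stood at 261, 234 and 162 CPM and 48.5 CPM, and Cxcl3, its close relative, at 236, 148 and 159.5 CPM and 19.7 CPM. The TSeL+L values of all 3 lay below every PBS sample by a wide margin. They were 14.9-fold lower, 4.51-fold lower and 9.20-fold lower than in PBS, with edgeR adjusted p of 0.0682, 0.0922 and 0.0682, so none of them passed. The platelet chemokines Pf4 and Ppbp stood at 64.2, 46.3 and 39.3 CPM and 20.8, 22.3 and 21.9 CPM in PBS and at 14.7 and 1.75 CPM in TSeL+L. Cxcr2, the neutrophil receptor for Cxcl1, Cxcl2, Cxcl3 and Cxcl5, was also low, at 198, 167 and 201 CPM against 32.5 CPM (adjusted p = 0.0689).

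The promoters of Cxcl1, Cxcl2 and Cxcl3 are shown because these neighbouring genes were low together. That of Cxcl5, the gene that fell, was missing from the promoter reference used and could not be searched. Each line gives the 150 bases before the start of the gene, 5′ to 3′, on the plus strand, from RefSeq (build GRCm38.p6). They are chr5:90891095-90891244 for Cxcl1, chr5:90903749-90903898 for Cxcl2 and chr5:90785951-90786100 for Cxcl3. Capitals mark the motif GGAATTTCC, an NF-kappaB type of site, searched on both strands. It lies 62 to 70, 88 to 96 and 64 to 72 bases before the start.
Cxcl1: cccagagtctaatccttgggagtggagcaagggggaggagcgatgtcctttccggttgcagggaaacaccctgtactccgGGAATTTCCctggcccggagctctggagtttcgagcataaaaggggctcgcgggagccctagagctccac
Cxcl2: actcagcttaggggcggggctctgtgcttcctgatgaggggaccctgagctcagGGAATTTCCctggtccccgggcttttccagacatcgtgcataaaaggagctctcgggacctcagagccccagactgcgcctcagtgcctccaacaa
Cxcl3: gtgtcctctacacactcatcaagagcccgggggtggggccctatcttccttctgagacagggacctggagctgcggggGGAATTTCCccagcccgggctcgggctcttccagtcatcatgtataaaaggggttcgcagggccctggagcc
Of 32851 promoter windows of the same 150 bases, 62 (0.189%) hold this motif on either strand. The match describes the sequence and does not show that the site was in use.

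Genes of neutrophils themselves followed the chemokines. Of 25 neutrophil genes, all tested, 22 were clear below the PBS range and none above; 24 were below every PBS sample, and the median log2 fold change was -2.54. Together they held 0.938%, 0.854% and 0.659% of all counts in PBS and 0.226% in TSeL+L. S100a8 and S100a9, which form the calcium-binding protein calprotectin, stood at 2686, 2467 and 1560.1 CPM and 4003, 3678 and 2496 CPM in PBS and 599 and 916 CPM in TSeL+L. Ly6g, a surface marker of mouse neutrophils, stood at 17.2, 8.17 and 4.56 CPM against 0.547 CPM, and Mmp8, neutrophil collagenase, at 145, 87.8 and 58.5 CPM against 6.51 CPM. PBS replicate 3 was lowest of the PBS samples for each of these 4 genes, and TSeL+L was lower still. Trem1, a receptor that amplifies the response of myeloid cells to bacterial products, differed little among PBS samples, at 183, 143 and 177 CPM, and stood at 17.7 CPM in TSeL+L (edgeR adjusted p = 0.0682). The exception was Padi4, the enzyme that citrullinates histones in neutrophils, at 18.00, 11.3 and 11.2 CPM in PBS and 34.3 CPM in TSeL+L; it was clear above the range of the PBS samples without replicate 1, and with library totals. No neutrophil gene on the list passed the test.

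The promoter of Retnla, the gene that rose, is shown for the element through which interleukin-4 acts by way of STAT6, with TTC and GAA 4 bases apart, in capitals and searched on both strands. The 150 bases before its start are chr16:48842459-48842608 on the plus strand of the same build, and the motif lies 136 to 145 bases before the start.
Retnla: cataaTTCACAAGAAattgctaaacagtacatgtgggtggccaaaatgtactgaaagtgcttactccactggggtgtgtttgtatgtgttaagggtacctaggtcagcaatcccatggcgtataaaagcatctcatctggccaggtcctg
This looser motif is found in 1041 (3.17%) of the 32851 windows, so a match is common, and it shows no use of the site.

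Other genes of alternatively activated macrophages were split. Of 16, 3 were clear above the range, 3 clear below and the median log2 fold change was -0.48. Clec10a, a galactose-binding lectin of macrophages and dendritic cells, stood at 22.8, 24.8 and 26.5 CPM in PBS and 59.3 CPM in TSeL+L (edgeR adjusted p = 0.0917), and Cd209d, a lectin of the DC-SIGN family, at 3.54, 2.95 and 2.07 against 7.93 CPM. Both were above every PBS sample. In contrast Arg1, arginase, stood at 761, 281 and 457 CPM against 129.7 CPM, and Chil3, a chitinase-like protein that neutrophils make too, at 159.6, 36.4 and 15.2 against 6.57 CPM. Il4ra, the receptor chain shared by interleukin-4 and interleukin-13, was also low, at 338, 318 and 260.5 CPM against 98.9 CPM (adjusted p = 0.0917). Mrc1, the mannose receptor, lay within the PBS range, at 419, 187 and 223 CPM against 196 CPM.

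Genes of inflammatory macrophages were low with few exceptions. Of 16 tested of 17 listed, 12 were clear below the PBS range, none above, and the median log2 fold change was -1.64; Marco did not pass the filter. Spp1, osteopontin, a secreted adhesion protein, stood at 608, 510.3 and 494 CPM in PBS and 47.6 CPM in TSeL+L, the widest gap on the list. Nos2, which makes nitric oxide, stood at 194, 152 and 262 CPM against 50.6 CPM, and Cd80, a costimulatory ligand for T cells, at 23.2, 24.8 and 31.9 against 6.40 CPM. All 3 were below every PBS sample. Tnf lay within the PBS range, at 10.1, 9.03 and 17.2 CPM against 11.4 CPM. Markers of monocytes and macrophages as such differed less: 18 of 20 were below every PBS sample but 5 were clear of the range (8 without PBS replicate 1, 2 with library totals), with a median of -1.06. Adgre1, which encodes F4/80, was at 58.7, 73.4 and 101 CPM against 53.6 CPM, and Csf1r, the receptor for the growth factor of macrophages, at 269, 293 and 386 against 162 CPM.

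Cytokines upstream of neutrophil recruitment were low in part. In the interleukin-1 family 6 of 16 genes were clear below the PBS range and 1 above, with a median log2 fold change of -1.22. Il1b, made by activated myeloid cells, stood at 889, 738 and 1265 CPM against 332 CPM, and the receptor chains Il1r1 and Il1rap at 321, 278 and 343 against 114 CPM and 113, 111 and 96.4 against 41.7 CPM. The receptor chains were tight among PBS samples and clear below their range in TSeL+L, but neither passed edgeR's test. The gene above was Il1f10, interleukin-38, a member of the family made in differentiated epidermis, at 0.122, 0.492 and 0.592 CPM against 5.80 CPM.

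In the interleukin-6 family 4 of 15 genes were clear below (7 without PBS replicate 1), with a median log2 fold change of -0.87. Il6 itself varied among PBS samples, at 48.6, 14.3 and 35.5 CPM, and stood at 2.90 CPM in TSeL+L. Osm, oncostatin M, a cytokine of the same family made by neutrophils and macrophages, stood at 87.5, 40.99 and 54.00 against 13.2 CPM. Socs3, the feedback inhibitor induced through STAT3, was steady in PBS, at 318, 353 and 345 CPM, and lower in TSeL+L, at 123 CPM (adjusted p = 0.0682). Among genes of interleukin-17 and its relatives 5 of 17 were clear below (3 with library totals), with a median of -0.87. Il17a, the cytokine of gamma-delta and T helper 17 cells that induces CXC chemokines in keratinocytes, stood at 5.43, 8.23 and 32.4 CPM, high in PBS replicate 3, against 1.09 CPM. Il24, a cytokine of wound-edge keratinocytes, held 57, 50 and 31 counts in PBS and an average of 1 count in TSeL+L. Il17ra, the receptor, stood at 118, 106 and 112 against 51.6 CPM.

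Sensors of bacterial products and the NF-kappaB feedback genes were lower too. Of 21 toll-like receptor genes and adaptors 6 were clear below and none above, with a median log2 fold change of -0.75. Cd14, the co-receptor for lipopolysaccharide, stood at 458, 539.7 and 573 CPM against 98.7 CPM (adjusted p = 0.0917), and Tlr2, the receptor for bacterial lipoproteins, at 104, 116 and 176 against 34.2 CPM. Of 16 NF-kappaB subunits and inhibitors 15 were below every PBS sample but 3 were clear (1 with library totals), with a median of -0.92. The 3 were feedback regulators induced by NF-kappaB: Tnfaip3, the inhibitor A20, at 212, 187 and 164 against 53.7 CPM (adjusted p = 0.0682), Nfkbiz at 318, 276 and 253 against 117 CPM, and Nfkbie. The subunit genes Rela and Nfkb1 differed less, at 79.8, 109 and 93.5 against 65.3 CPM and 148, 179.9 and 171 against 108 CPM. Of 14 inflammasome and pyroptosis genes 6 were clear below (3 with library totals), among them Nlrp12 at 22.02, 20.5 and 26.8 against 2.68 CPM and the sensor Nlrp3 at 61.3, 88.6 and 107 against 23.8 CPM; Gsdma, a gasdermin of the epidermis and follicle, was clear above at 64.5, 79.6 and 64.9 against 179 CPM.

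Other chemokines and other leukocytes differed less than the neutrophil genes. Of 24 other chemokines 3 were clear below (7 without PBS replicate 1, 6 without PBS replicate 3) and 1 above, with a median log2 fold change of -0.74. Ccl2, Ccl3 and Ccl4, which attract monocytes and lymphocytes, were those below, with Ccl2 at 35.01, 34.4 and 33.9 against 14.4 CPM, and Ccl27a, a chemokine of keratinocytes for skin-homing T cells, was above, at 0.915, 0.307 and 0.651 against 2.79 CPM. Among 18 T cell genes 2 were clear below, with Ctla4, the inhibitory receptor of regulatory T cells, at 23.6, 30.5 and 21.7 against 4.71 CPM (adjusted p = 0.0682), while Cd3e, a chain of the T cell receptor complex, lay within the range at 3.23, 5.28 and 7.40 against 4.87 CPM. Of 14 mast cell and basophil genes 3 were clear below (1 with library totals). Hdc, which makes histamine and is also expressed by neutrophils, was at 318, 269.6 and 292 against 62.2 CPM (adjusted p = 0.0682), but the mast cell proteases Cpa3 and Mcpt4 lay within the PBS range, at 30.1, 14.3 and 23.6 against 21.4 CPM and 35.5, 20.3 and 28.1 against 25.3 CPM. Of 12 NK and cytotoxic cell genes 1 was clear below (2 without PBS replicate 1), the granule protease Gzmb, at 8.30, 8.97 and 13.1 against 3.34 CPM. None of 11 B cell, 13 tested Langerhans and dendritic cell, 15 MHC or 25 interferon-stimulated genes was clear of the range with all PBS samples in. Without PBS replicate 3, 4 B cell genes were clear below, and without PBS replicate 1, 1 B cell gene and 3 Langerhans and dendritic cell genes; with library totals 1 Langerhans and dendritic cell gene was clear above. The median of the interferon-stimulated genes was -0.41 and turned to 0.25 without PBS replicate 3, which had the highest levels of these genes, such as Isg15, a ubiquitin-like protein, at 19.2, 18.1 and 59.8 against 29.7 CPM.

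Acute-phase proteins that inflamed skin makes locally were low. Of 18 complement and acute-phase genes 3 were clear below (6 without PBS replicate 3) and 1 above (2 with library totals), with a median log2 fold change of -0.77. Saa3, a serum amyloid A protein, stood at 1217, 1218 and 777 CPM against 159.9 CPM, and Hp, haptoglobin, at 1327, 1244 and 849 against 216 CPM, both lowest among PBS samples in replicate 3. C3, the central complement component, was at 1707, 1402 and 1332 against 1082 CPM. The gene clear above, Cfd, adipsin, is expressed mainly in fat, and stood at 117, 120.1 and 182 against 375 CPM.

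**Figure D2:**
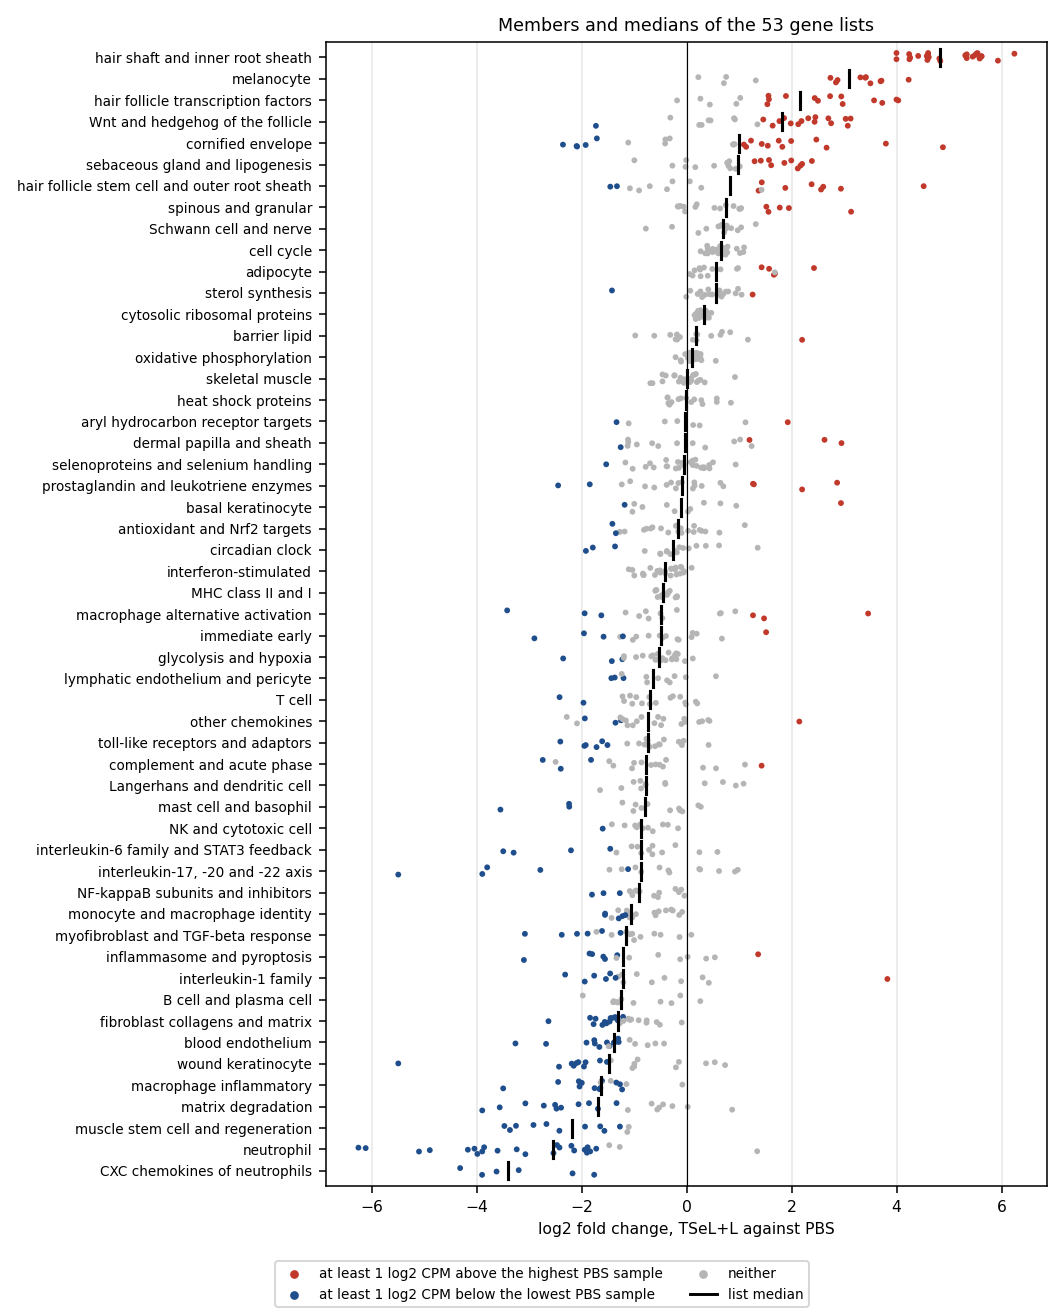
Each point is a tested gene of 1 of 53 lists, at its log2 fold change of TSeL+L against PBS; black bars are list medians. Colours mark genes at least 1 log2 CPM beyond the PBS range, above in red and below in blue. The CXC chemokine and neutrophil lists lie lowest, with medians of -3.41 and -2.54, and the hair shaft list highest, at 4.83.

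Genes of matrix breakdown and of the repairing dermis were low. Of 19 genes of matrix degradation 11 were clear below the PBS range and none above, with a median log2 fold change of -1.69. Mmp13, collagenase 3, stood at 262, 265 and 162 CPM against 19.4 CPM, and Mmp9, a gelatinase that neutrophils carry as well, at 381, 385 and 349.5 against 44.2 CPM. Adam8, a protease of leukocytes, stood at 460.1, 342 and 291 against 65.3 CPM, and Plaur, the urokinase receptor, at 133, 146 and 102 against 39.4 CPM. These 4 were 3.23-fold to 11.8-fold lower than in PBS and none overlapped the PBS range. Mmp3, stromelysin 1, differed less, at 312, 363 and 382 against 222 CPM. Neutrophil RNA was lower in the same sample (above), and its part in the values of Mmp8, Mmp9 and Adam8, and of other genes that neutrophils share, was not tested.

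Fibroblast genes were low as a group. Of 25 collagen and matrix genes 14 were clear below, 24 were below every PBS sample and the median log2 fold change was -1.31. Their share of all counts was 6.65%, 6.67% and 8.80% in PBS and 3.32% in TSeL+L. Col1a1 and Col3a1, the main fibrillar collagens of the dermis, stood at 10116, 11115 and 12979 CPM and 20795, 19551 and 29584 CPM in PBS and at 4426 and 9395 CPM in TSeL+L. Col12a1, a collagen that coats fibrils and is raised in healing tissue, showed the widest gap, at 1906, 1980.0 and 2435 against 339.5 CPM. Lox, which crosslinks collagen, was at 574, 695 and 568 against 179 CPM, and Pdgfra, a receptor that marks fibroblasts, at 468, 341 and 438 against 136 CPM. Of 17 myofibroblast and TGF-beta response genes 6 were clear below, with a median of -1.15. Tnc, tenascin C, a matrix protein of healing wounds, stood at 1845, 2161 and 2525 against 257 CPM, and Tgfbi, a TGF-beta-induced matrix protein, at 789.7, 818 and 823 against 219 CPM. The contractile genes Acta2 and Tagln were less different, at 249, 379 and 347 against 146 CPM and 103, 226 and 144 against 112 CPM; the latter lay within the PBS range.

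All 19 blood vessel genes were below every PBS sample, as were 5746 of all 15791 genes tested. Of the 19, 12 were clear below, with a median log2 fold change of -1.39. Sele, E-selectin, which cytokine-activated endothelium uses to catch neutrophils, showed the widest gap, at 106, 110.1 and 80.3 CPM against 10.3 CPM (adjusted p = 0.0917). Selp, P-selectin, stood at 194, 183 and 228 against 31.4 CPM, and Vcam1, a vascular adhesion molecule, at 102, 86.6 and 116 against 26.98 CPM. Genes of endothelium as such were lower by less, with Pecam1 at 338, 272 and 371 against 114 CPM and Cdh5, the cadherin of endothelial junctions, at 175, 144 and 206 against 63.2 CPM. Of 12 lymphatic and pericyte genes 3 were clear below (1 with library totals), with a median of -0.65: Pdpn, podoplanin, Rgs5, a marker of pericytes, and Pdgfrb, their growth factor receptor, at 197, 194 and 209 against 77.3 CPM. Prox1, the transcription factor of lymphatic endothelium, stood at 8.30, 6.02 and 5.57 against 3.88 CPM.

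Keratinocyte genes of the wound edge were low. Of 20, 10 were clear below and none above, with a median log2 fold change of -1.48; it was -0.57 in TL+L and -1.06 in TSeL, comparisons that share the PBS samples. Krt6a and Krt6b, keratins induced in activated epidermis, stood at 2290.1, 3581 and 1936 CPM and 2163, 3059 and 1943 CPM in PBS and at 669.7 and 537 CPM in TSeL+L. Krt16, their partner, was at 2288, 3266 and 1576 against 872 CPM. These 3 were below every PBS sample, whereas Krt17, which is also a keratin of the follicle, lay within the range, at 1383, 1935 and 1246 against 1319 CPM. Slpi, a protease inhibitor secreted by keratinocytes and neutrophils, stood at 167, 149 and 97.2 against 25.5 CPM (adjusted p = 0.0917).

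**Figure D3:**
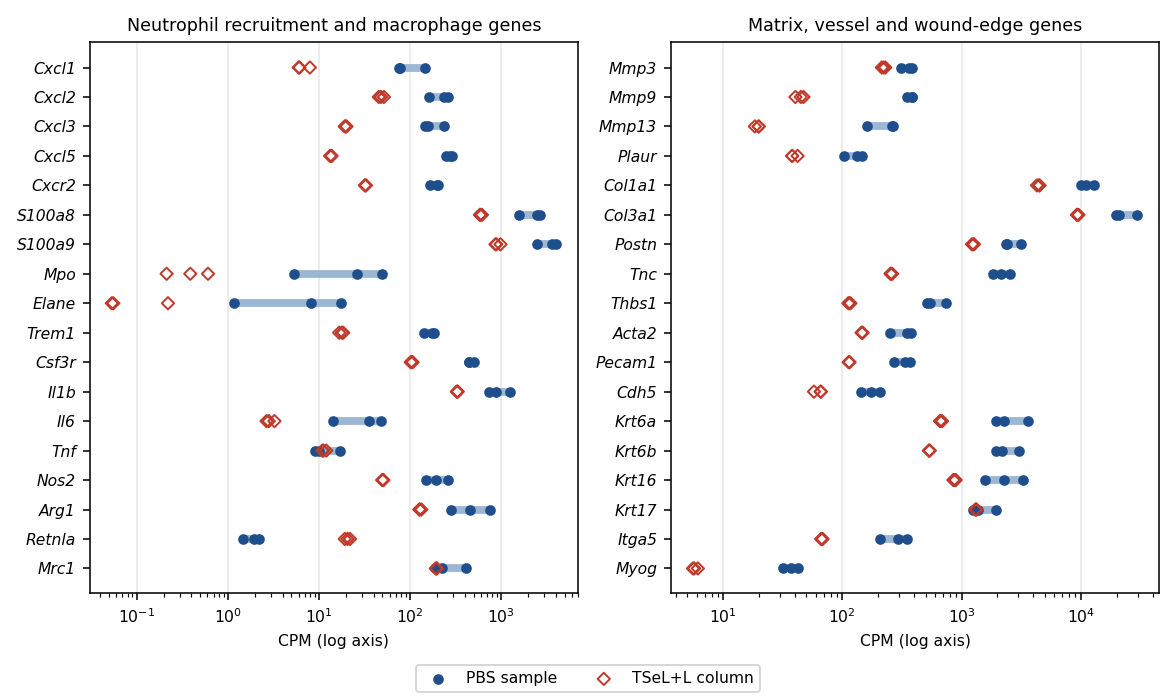
Levels in CPM (log axis) of genes of neutrophil recruitment and macrophages (left) and of matrix, vessels and the wound edge (right). Filled circles are PBS samples, bars their range and open diamonds the TSeL+L columns. Most TSeL+L values lie below the whole PBS range; Retnla lies above it, and Tnf, Mrc1 and Krt17 do not lie clear of it.

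Muscle genes split by maturity. Of 12 genes of muscle stem cells and regenerating fibres 10 were clear below the PBS range, and the median log2 fold change was -2.18. Myog, the transcription factor of differentiating myoblasts, stood at 36.9, 42.5 and 31.7 CPM against 5.80 CPM. Myh3 and Myh8, the embryonic and perinatal myosins, were at 266, 304 and 181 and 317, 549 and 341 CPM in PBS and at 24.2 and 42.2 CPM in TSeL+L, and Mymk, which fuses myoblasts, at 15.6, 18.8 and 15.04 against 1.48 CPM. TSeL+L lay well below every PBS sample for these genes. Pax7, the marker of resting muscle stem cells, lay within the range, at 1.95, 2.83 and 0.651 against 0.821 CPM. Of 25 genes of mature muscle, by contrast, none was clear of the range and 24 lay within it, with a median of 0.00 (-0.24 without PBS replicate 3). Their share of all counts was 4.98%, 3.58% and 1.88% in PBS and 3.92% in TSeL+L, a TSeL+L value inside the PBS range. None of the muscle genes passed the test, with adjusted p of 0.300 for Myog and 0.206 for Myh8.

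The epidermis showed higher levels of genes of late differentiation. Of 19 spinous and granular genes 5 were clear above the PBS range and none below, and the median log2 fold change was 0.74. Set against the same PBS samples, the median was 0.54 in TL+L skin and -0.92 in TSeL skin. Krt10, a keratin of the suprabasal layers, stood at 758, 1165 and 1030.5 CPM in PBS and 3797 CPM in TSeL+L, and its partner Krt1 at 2357, 2918 and 1723 against 4671 CPM. Dsg1a, a desmosomal cadherin, was at 166, 157 and 122 against 507 CPM, and Calml3, a calmodulin-like protein of differentiating epithelium, at 102, 96.4 and 88.5 against 274 CPM (adjusted p = 0.0922 and 0.0682). All 4 exceeded every PBS sample. Basal genes showed no shared direction: of 12, 1 was clear above and 1 below (2 without PBS replicate 1, 0 with library totals), with a median of -0.10 that turned to 0.06 with library totals. Krt14, the partner of Krt5, stood at 3189.5, 4225 and 2571 against 1854 CPM. The gene above was Krt15, a keratin of basal cells and of the follicle bulge, where hair stem cells sit, at 45.9, 25.4 and 42.6 CPM against 291 CPM (adjusted p = 0.0682).

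Cornified envelope genes went in both directions. Of 24, 12 were clear above the PBS range and 5 below, with a median log2 fold change of 1.00. Lor, loricrin, the main protein of the envelope, stood at 99.9, 35.5 and 98.7 CPM against 432 CPM, Flg, filaggrin, which bundles keratin, at 528, 379 and 538 against 1912 CPM, and Ivl, involucrin, at 18.6, 22.9 and 22.1 against 74.96 CPM. Of the 7 Lce1 genes on the list 6 were clear above as well, with Lce1a1 at 28.2, 20.3 and 24.2 against 56.6 CPM. The 5 below were Sprr1b, a small proline-rich protein, and all 4 Lce3 genes on the list, a family of late envelope proteins induced when the human barrier is injured, with Lce3c at 22.4, 39.8 and 28.8 against 5.91 CPM. Crnn, cornulin, and Flg2 showed the highest ratios, but their PBS samples were far apart, at 1.71, 0.246 and 15.7 and 12.9, 1.84 and 11.8 CPM against 174 and 123 CPM. Lce genes are close copies of one another, and how the authors' counting divided shared reads between them is not known. Of 17 barrier lipid genes 1 was clear above (2 without PBS replicate 2): Alox12e, an epidermal lipoxygenase, at 8.97, 4.67 and 4.44 against 27.7 CPM.

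**Figure D4:**
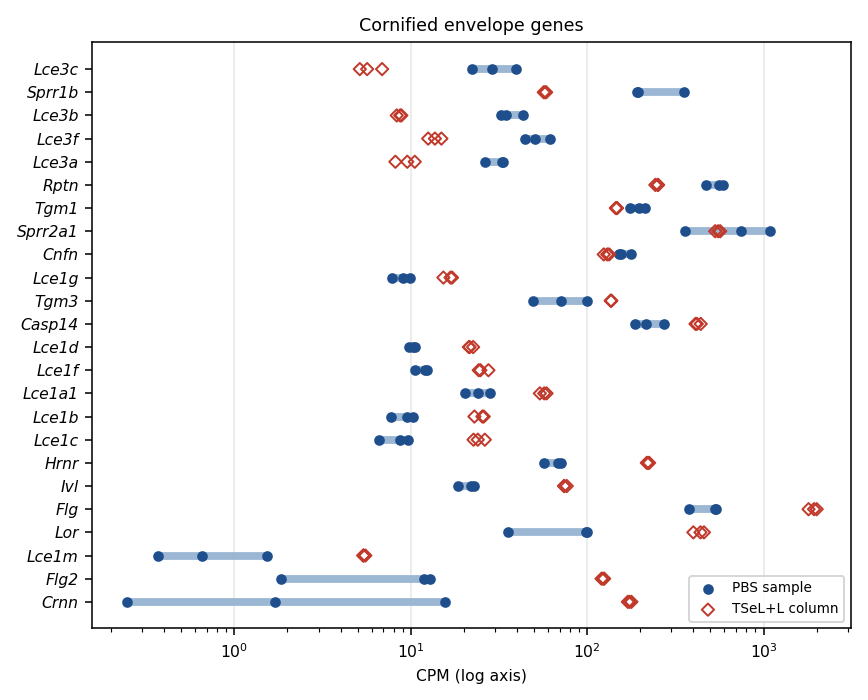
Levels in CPM (log axis) of the 24 cornified envelope genes, ordered by log2 fold change. Filled circles are PBS samples, bars their range and open diamonds the TSeL+L columns. The 4 Lce3 genes and Sprr1b lie below the PBS range and the Lce1 genes, Lor, Flg and Ivl above it.

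Hair follicle genes were the highest group. All 29 tested of 30 hair shaft and inner root sheath genes were clear above the PBS range, against 5.43% of all genes, with a median log2 fold change of 4.83. Krt71, a keratin of the inner root sheath, stood at 33.9, 1.41 and 446 CPM in PBS and 3877 CPM in TSeL+L, Krt25, of the same layer, at 35.2, 1.78 and 308 against 2444 CPM, and Krt35, of the hair cortex, at 10.98, 0.369 and 53.4 against 528 CPM. The PBS samples were far apart for these genes, with replicate 3 the highest and replicate 2 the lowest, and TSeL+L lay above all of them. The mean log2 CPM of the list was 0.23, -0.94 and 4.76 in PBS and 8.33 in TSeL+L. Without PBS replicate 3 the median was 9.21, and all 29 stayed clear above whichever PBS sample was left out. The part that the stage of the hair cycle has in these values was not tested, since the labels give none. None of the 29 passed edgeR's test, in which the spread between PBS samples and that between TL+L samples count. The mean log2 CPM of the list was 8.58, 5.95 and 9.53 in TL+L. Krt84, a keratin of the hair cuticle, was even among the PBS samples, at 1.10, 0.922 and 1.18 CPM, and stood at 20.3 CPM (adjusted p = 0.145).

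Regulators of hair growth lay above the range by less but were steadier in PBS. Of 18 follicle transcription factors 13 were clear above and none below, with a median log2 fold change of 2.16. Gata3, which directs the inner root sheath, stood at 15.8, 16.5 and 17.5 CPM against 94.1 CPM (adjusted p = 0.0883), Sox21, needed in the hair cuticle, at 11.7, 7.56 and 14.4 against 74.6 CPM (adjusted p = 0.0906), and Hoxc13, a regulator of hair keratins, at 3.35, 0.799 and 10.4 against 79.7 CPM. Of 24 Wnt and hedgehog genes 15 were clear above and 1 below, with a median of 1.81; 3 of the 27 listed did not pass the filter. The ligands Wnt10b and Shh, which drive the growth phase, stood at 8.36, 3.87 and 9.59 against 49.03 CPM and 5.92, 0.737 and 3.67 against 18.9 CPM, and the target Axin2 at 14.9, 11.9 and 14.7 against 43.1 CPM. Hhip, which binds hedgehog ligands and is a target of the pathway, stood at 2.13, 0.799 and 2.25 against 11.3 CPM (adjusted p = 0.0922). PBS replicate 2 had the lowest value of these 4 genes, and TSeL+L was above all PBS samples. The gene below was Fgf7, keratinocyte growth factor, a fibroblast product that is raised in wounds, at 79.2, 52.3 and 75.5 against 20.8 CPM.

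Stem cell and outer root sheath genes were mixed: 8 of 18 were clear above and 2 below (1 with library totals), with a median log2 fold change of 0.82. Lgr5, a receptor of active follicle stem cells, stood at 5.86, 5.16 and 8.76 CPM against 34.4 CPM (adjusted p = 0.0917), and Sox9, a transcription factor of the outer root sheath, at 8.97, 9.59 and 12.6 against 26.8 CPM. Cd34, a bulge marker that endothelium shares, was below the PBS range but not clear of it, at 244, 214 and 288 against 206 CPM, and Gas1, a hedgehog co-receptor, was clear below, at 158, 162 and 139 against 55.8 CPM (adjusted p = 0.0682). Of 16 dermal papilla genes 3 were clear above (5 without PBS replicate 1) and 1 below (3 without PBS replicate 1, 2 without PBS replicate 2, 0 with library totals), with a median of -0.03 that turned to 0.13 with library totals. Corin, a protease of the papilla, was at 2.56, 1.11 and 1.66 against 11.00 CPM.

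Pigment genes went with the follicle. Of 14 melanocyte genes 10 were clear above the PBS range, all 14 were above every PBS sample and the median log2 fold change was 3.09. Tyr, tyrosinase, the enzyme whose activity albino strains lack, stood at 6.89, 1.11 and 5.33 CPM against 44.2 CPM, and Dct, the next enzyme of the pathway, at 43.5, 10.7 and 21.1 against 168 CPM. Mc1r, the melanocortin receptor, stood at 0.854, 0.307 and 1.54 against 17.1 CPM (adjusted p = 0.0922). The 30 cell cycle genes were all above every PBS sample, as were 5668 of all 15791 genes tested. None of the 30 was clear of the range, and their median was 0.65. Mki67, a marker of cycling cells, was at 119, 92.1 and 132 against 244 CPM. With library totals 2 of the 30 were clear, and without PBS replicate 3, 1.

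Sebaceous and lipid genes were higher as well. Of 22 genes of the sebaceous gland and fatty acid synthesis 10 were clear above and none below, with a median log2 fold change of 0.97. Scd1, the desaturase of sebocytes, stood at 257, 219 and 203 CPM against 982 CPM (adjusted p = 0.0682), Fasn, fatty acid synthase, at 132, 143 and 152 against 744 CPM, and Acaca, acetyl-CoA carboxylase, at 72.4, 79.1 and 77.03 against 203 CPM (adjusted p = 0.0922). Each lay above a narrow PBS range. Mgst1, a glutathione transferase of sebocytes, lay within it, at 94.8, 102 and 116 against 104 CPM. Of 18 adipocyte genes 5 were clear above, with a median of 0.57: Plin1, which coats fat droplets, stood at 10.4, 8.17 and 15.8 against 34.03 CPM and the hormone Lep, leptin, at 1.83, 0.983 and 1.48 against 4.54 CPM. Adipoq, adiponectin, differed less, at 28.3, 19.5 and 42.9 against 58.8 CPM. Of 20 sterol synthesis genes 1 was clear above (2 with library totals) and 1 below, with a median of 0.55.

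**Figure D5:**
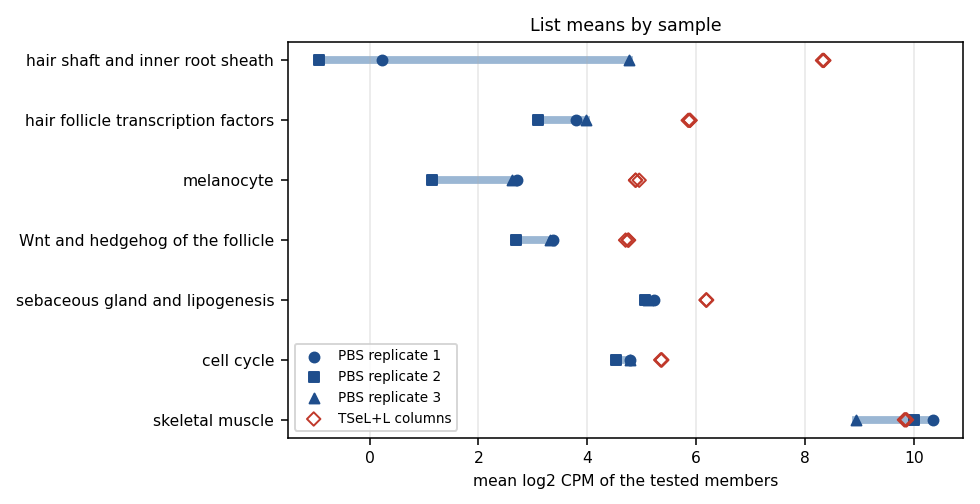
Mean log2 CPM of the tested members of 7 lists in each PBS sample (filled symbols, 1 shape per sample, with their range as a bar) and in each TSeL+L column (open diamonds). TSeL+L lies above all PBS samples in the 6 follicle, gland, pigment and cell cycle lists and inside the PBS range for mature skeletal muscle, and PBS replicate 3 is far from the other PBS samples for hair shaft and muscle genes.

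Selenium-dependent and antioxidant genes showed no shared shift. Of 28 tested of 30 selenoprotein and selenium-handling genes 1 was clear below (2 without PBS replicate 3) and none above (1 without PBS replicate 1), and the median log2 fold change was -0.06, which turned to 0.10 with library totals and to 0.01 without PBS replicate 2 or 3. Gpx1, a cytosolic glutathione peroxidase, stood at 397, 537 and 360.5 CPM against 266 CPM, Gpx4, which protects membrane lipids, at 179.5, 181 and 139 against 144 CPM, and Selenop, the plasma selenium carrier, at 789.5, 638 and 706 against 767 CPM. The last 2 lay within the PBS range. The gene clear below was Selenon, a selenoprotein of the endoplasmic reticulum, at 128, 132 and 139 against 45.96 CPM (adjusted p = 0.0928). Of 24 antioxidant genes 2 were clear below and none above (1 with library totals or without PBS replicate 3), with a median of -0.18. Hmox1, heme oxygenase 1, was below the range but not clear of it, at 109, 136 and 156 against 82.95 CPM, and Nqo1, a quinone reductase, just above it, at 6.71, 8.42 and 6.87 against 8.70 CPM. None of 15 heat shock genes was clear of the range, and their median of -0.01 took the other sign with library totals, with size factors of the DESeq2 type and with each PBS sample left out.

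Genes of glucose use and hypoxia were lower in part, led by transporters. Of 24 glycolysis and hypoxia genes 3 were clear below (5 without PBS replicate 3) and none above, with a median log2 fold change of -0.52, and 7 lay within the PBS range. The list's share of all counts was 1.44%, 1.38% and 1.09% in PBS and 1.11% in TSeL+L, a TSeL+L value inside the PBS range. Slc16a3, a lactate exporter, stood at 251, 208 and 268 CPM against 47.4 CPM (adjusted p = 0.0682), Slc2a1, the glucose transporter GLUT1, at 215, 199 and 196 against 87.1 CPM (adjusted p = 0.0922), and Hif1a, the hypoxia-inducible factor, at 707, 771 and 678 against 267 CPM. All 3 were even among PBS samples and well below them in TSeL+L. Ldha, lactate dehydrogenase, lay within the range, at 1277, 1265 and 898 against 946 CPM. Oxidative phosphorylation genes did not go with them: none of 30 was clear of the range and 21 lay within it.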

How the data were processed

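Per the labels' protocols, flash-frozen skin was extracted with Trizol, and poly(A) libraries were prepared with oligo-dT beads and an Illumina TruSeq kit. The authors deposited a gene table of 18858 genes with expected counts (estimated reads per gene). Bowtie2 and RSEM are named in the submitters' processing notes; their versions, the genome build, the annotation and the strand setting are not given in the sources. The deposited expected counts, of which 88.7% were whole (tolerance 0), were rounded, and 24 other columns of values per sample were not used. Overlapping and antisense genes, and close copies, can therefore share reads. The column codes TSL were read as TSeL+L, because they add an L to the codes of TSeL as the label does. Pairs of columns were compared by chi-square where a gene had 40 or more counts in the pair, and the 3 TSeL+L and 3 TSeL columns were each averaged.

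The fit held 8 libraries (3 PBS, 3 TL+L and the 2 averages): edgeR 4.0.16 in R 4.3.3, filterByExpr, TMM factors, a robust quasi-likelihood test with 4 residual degrees of freedom, two-sided, adjusted over 15791 genes at 0.05. The common biological coefficient of variation was 0.278. Log2 CPM used a prior count of 2. The script was tested on simulated data. The members and the 53 lists (976 genes, 968 matched, 4 of them by synonym) were chosen with earlier results of these data known, so no list was tested as a set. Named were the called genes, the 8 highest and 8 lowest fold changes clear of the range in every column (at least 5 CPM in the higher group, at most 2 per symbol stem, no predicted genes), and per list the 3 lead genes and the 3 smallest p; other genes were chosen after their values were seen. Alternatives were DESeq2 1.42.0, limma-voom (limma 3.58.1), other scalings, prior count, filters, distances, column choices and leaving out each replicate; list counts without a PBS sample or with library totals were added after seeing the data. Promoters came from RefSeq tables.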

Additional observations from a re-analysis of the deposited data

How the results depend on the processing

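The count of 2 changed genes differed with the fit. With the same 8 samples DESeq2 called 1496 genes and limma-voom 4. The cause was not tested. A fit of only PBS and TSeL+L called 1802, and 1 that took all 12 columns as separate samples, so that near-repeats count as replicates, called 7092. Leaving out 1 PBS or TL+L sample gave 0 to 2163 genes, the highest without TL+L replicate 2. The count stayed at 2 with 1 column per averaged group, with a stricter filter or none, and with library totals or DESeq2's size factors. Cxcl5 passed in 11 and Retnla in 10 of 15 alternatives. Of genes clear of the PBS range there were 1826; counting any distance beyond the range gave 11414, and at least 2 on the log2 CPM scale gave 460. Of 4537 recomputed adjusted p-values of the 303 named genes 3874 stayed on their side of the threshold, 654 passed it although the reported fit did not call the gene, and 9, of Cxcl5 and Retnla, no longer did. The 654 came from 227 genes and from 5 of the 15 alternatives: the 12 columns as samples, DESeq2, the fit without TL+L replicate 2, the fit of only PBS and TSeL+L, and limma-voom. In 57 recomputed values the fold change took the other sign, none of them past the threshold in either fit. Of the 53 list medians 6 took the other sign with library totals and 8 without some PBS sample. No paired analysis was possible because the TSeL+L columns share the number 1. The limits are 1 treated library, unexplained labels, a reading of column codes on which every TSeL+L value depends, and PBS samples that differ in hair, muscle and granule genes. TL+L samples, which also supply the spread, differed too. TL+L replicate 2 gave a mean chi-square of 184 and 152 against replicates 1 and 3, which gave 60.9 with each other. Depth limits genes with few counts, such as Elane and Il24.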

Other observations

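Gene groups outside the immune, repair and follicle themes held a few genes clear of the PBS range. Of 18 clock genes 3 were clear below (2 with library totals) and none above (1 without PBS replicate 1), with a median log2 fold change of -0.27: Per1 stood at 199.5, 174 and 98.2 CPM in PBS and 45.5 CPM in TSeL+L, Per2 at 22.4, 26.5 and 20.1 against 6.07 CPM (edgeR adjusted p = 0.0906), and Nfil3, a repressor of clock output genes, at 128, 118 and 108 against 45.7 CPM. Arntl, the partner of Clock, lay within the PBS range, at 24.7, 35.6 and 28.9 against 30.6 CPM. The labels give no time of day, and its part in these values was not tested. Among 8 tested genes of the aryl hydrocarbon receptor 1 was clear above and 1 below (2 without PBS replicate 3, 0 with library totals). Cyp1a1, its classical target, stood at 1.71, 0.799 and 0.592 against 3.94 CPM, and Cyp1b1, which fibroblasts express, at 204, 148 and 178 against 69.9 CPM (edgeR adjusted p = 0.0917); neither passed.

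Enzymes of lipid mediators divided in the same list: of 21, 4 were clear above and 2 below, with a median of -0.09 that turned to 0.07 with library totals and to 0.06 without PBS replicate 1. Ptgs2, the inducible cyclooxygenase, stood at 200.1, 109 and 221 CPM against 32.3 CPM and Alox5ap, which feeds leukotriene synthesis in leukocytes, at 116, 92.8 and 72.2 against 26.1 CPM. Ptgs1, the constitutive cyclooxygenase, lay within the PBS range of 39.02 to 51.1 CPM, and Pla2g2f, a phospholipase of the epidermis, was above, at 52.3, 48.1 and 40.5 against 113 CPM. Among 18 immediate early genes 1 was clear above and 4 below; Fosl1, an AP-1 subunit raised in migrating keratinocytes, stood at 11.4, 15.5 and 10.1 against 1.64 CPM, while Fos and Jun lay within the PBS range. Of 14 Schwann cell and nerve genes 12 were above every PBS sample, with a median of 0.69, and none was clear of the range (2 without PBS replicate 1 or with library totals). All 23 ribosomal protein genes had fold changes above 0, with a median of 0.33, and 21 were above every PBS sample. Of all 15791 genes tested, 5668 were above every PBS sample.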
